A study of Capra hircus with 6 samples.

Results

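Transcription factors that mark nuclei of the hypothalamus were followed in hypothalamus RNA of pubertal and prepubertal goats. The 10 genes were taken by name: SIM1, OTP and POU3F2 for the paraventricular nucleus, NR5A1 and FEZF1 for the ventromedial nucleus, ISL1 and TBX3 for the arcuate nucleus, and SIX3, SIX6 and LHX1 for the suprachiasmatic nucleus. All 10 were found among the 20225 genes of the mRNA table. They were not selected by a measured value, but they were chosen with earlier results of these data known. The hypothalamus came from 6 female Anhuai goats, 3 at puberty, aged 4.5 to 5.0 months, and 3 before puberty, aged 2.5 to 3.0 months, with 1 RNA library per goat. The labels name no treatment and no genetic change in either group. Age and stage cannot be told apart in this design. The values are FPKM, which give fragments relative to transcript length and to a total of fragments of the library, summed over the transcripts of a gene. Each of the 10 genes had 1 transcript model, of 873 nt (SIX3) to 5250 nt (SIM1), so that the value of the gene was that of its transcript.

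A nucleus of the hypothalamus is a cluster of neurons with its own peptides and its own set of transcription factors. SIM1, OTP and POU3F2 are needed for the neurons that make oxytocin, vasopressin and the releasing hormones CRH and TRH in the paraventricular nucleus. NR5A1 (steroidogenic factor 1) and FEZF1 define the ventromedial nucleus, which takes part in energy balance and female sexual behaviour. ISL1 acts in the arcuate neurons that make POMC and other peptides, and TBX3 keeps the peptide identity of arcuate neurons. SIX3 and SIX6 pattern the early ventral forebrain, and SIX6 and LHX1 are required for the suprachiasmatic nucleus, the circadian clock of the brain. In bulk tissue the level of such a gene depends on how much of a nucleus a piece of tissue holds and on the RNA of the gene per cell, and fewer cells and less RNA per cell cannot be told apart. Some of these genes also act elsewhere: SIX3, SIX6, ISL1 and NR5A1 are used in the pituitary gland, and POU3F2 is broadly used in neurons.

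No factor differed between the stages beyond the spread between goats. With limma on log2(FPKM + 1) over the 16397 genes with a mean of at least 0.1 FPKM, 0 of the 10 factors and 0 of all genes (0%) had a Benjamini-Hochberg adjusted p under 0.05. At an unadjusted p under 0.05, limma called 0 of the 10 factors beside 846 of all genes (5.16%). The libraries of the stages overlapped for 10 of 10 factors, whereas they did not overlap for 1598 of all genes (9.75%). Of the 10 log2 fold changes (pubertal minus prepubertal), 4 were above 0, with a median of -0.03 beside -0.00065 over all genes tested. The 95% interval of the difference on the log2(FPKM + 1) scale was narrowest for POU3F2, from -0.30 to 0.19, and ran from -0.72 to 0.42 for SIX6 and from -0.66 to 0.58 for LHX1. For each factor, a stage difference within its own interval was not excluded by these values of 3 goats a group. With 3 goats a stage the smallest p of an exact permutation test is 0.1, and its p for the factors ran from 0.3 (FEZF1) to 1 (SIM1).

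**Figure D1:**
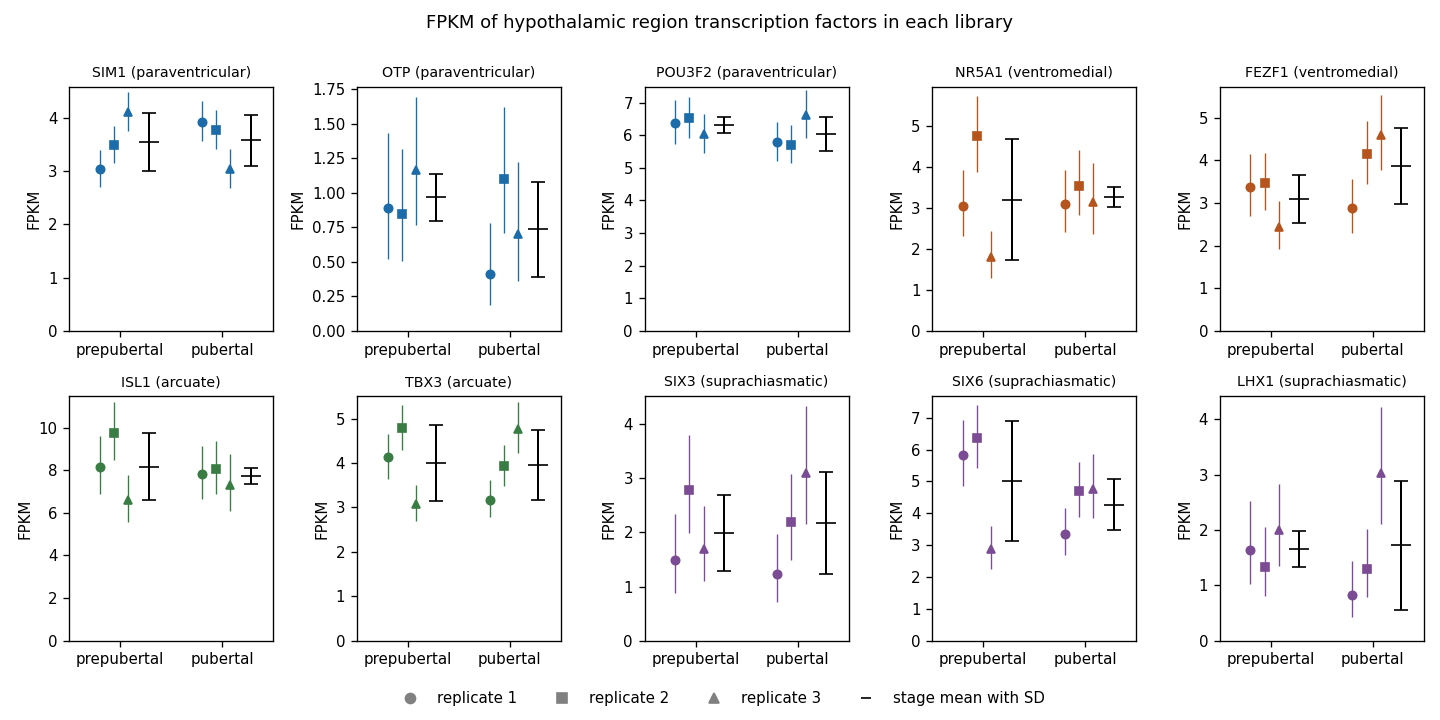
FPKM (linear axis from 0) of the 10 factors in the 3 prepubertal and 3 pubertal libraries. Points are libraries with the 95% Poisson interval of their fragments, black bars are the stage mean with its SD, and the stages overlap in every panel. The SD of the prepubertal libraries is 1.88 FPKM for SIX6, 1.59 for ISL1 and 1.47 for NR5A1.

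Among the paraventricular factors, SIM1 (gene 102185362), a bHLH-PAS factor needed for the neurons of this nucleus, had 3.93, 3.77 and 3.03 FPKM in the pubertal libraries and 3.04, 3.48 and 4.11 FPKM in the prepubertal libraries, given here and in what follows in the order of replicates 1, 2 and 3. The lowest values of both stages were alike, and the means were 3.58 ± 0.478 (SD, n = 3) and 3.54 ± 0.539 (SD, n = 3) FPKM. Its log2 fold change was 0.01 (SE 0.14, limma adjusted p = 0.999). OTP (gene 102188596), the homeobox factor of the same neurons, was the lowest of the 10 genes, at 0.411, 1.10 and 0.700 FPKM in the pubertal and 0.893, 0.845 and 1.16 FPKM in the prepubertal libraries. Only pubertal replicates 1 and 3 lay below all prepubertal values. The log2 fold change of OTP was -0.20 (SE 0.16, limma adjusted p = 0.962), and its FPKM rested on as few as 9 fragments in pubertal replicate 1, with a 95% Poisson interval of 0.188 to 0.781 FPKM. On the whole fragments, with limma's voom, its log2 fold change was -0.48 (SE 0.44, adjusted p = 0.996), since a pseudocount of 1 FPKM shrinks the change of so low a gene.

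POU3F2 (gene 102188406), a POU factor of the CRH, oxytocin and vasopressin neurons, was the steadiest of the 10. It was at 5.79, 5.71 and 6.62 FPKM in the pubertal and 6.38, 6.51 and 6.03 FPKM in the prepubertal libraries, with a log2 fold change of -0.06 (SE 0.11, limma adjusted p = 0.978). Its highest and lowest libraries, pubertal replicates 3 and 2, belonged to the same stage. Over the 6 libraries its coefficient of variation was 6.28%, beside 12.8% for SIM1 and 32.2% for OTP.

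Of the ventromedial factors, NR5A1 (gene 102186219) spread most within the prepubertal stage. It was at 3.09, 3.54 and 3.14 FPKM in the pubertal libraries and at 3.03, 4.73 and 1.80 FPKM in the prepubertal libraries. The prepubertal values thus enclosed all pubertal values, and the 95% Poisson intervals of prepubertal replicates 2 (3.88 to 5.72 FPKM) and 3 (1.30 to 2.43 FPKM) did not meet. Stage means were 3.26 ± 0.247 (SD, n = 3) and 3.19 ± 1.47 (SD, n = 3) FPKM, and the log2 fold change was 0.08 (SE 0.24, limma adjusted p = 0.988). FEZF1 (gene 102191488), a zinc finger factor of ventromedial neurons, was at 2.88, 4.14 and 4.59 FPKM in the pubertal and 3.36, 3.46 and 2.44 FPKM in the prepubertal libraries. Pubertal replicates 2 and 3 lay above all prepubertal values, and pubertal replicate 1 lay between them. FEZF1 had the highest log2 fold change of the 10, 0.24 (SE 0.17, interval -0.16 to 0.64, limma adjusted p = 0.962). Without pubertal replicate 1 it was 0.40, with an unadjusted limma p of 0.0386 and an adjusted p of 0.347.

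Of the arcuate factors, ISL1 (gene 102173232), a LIM homeobox factor, had the highest level of the 10. It was at 7.82, 8.06 and 7.33 FPKM in the pubertal and 8.16, 9.77 and 6.60 FPKM in the prepubertal libraries, and again the prepubertal values enclosed the pubertal ones. Its log2 fold change was -0.06 (SE 0.14, limma adjusted p = 0.985). TBX3 (gene 102185207), a T-box factor, was at 3.18, 3.93 and 4.77 FPKM in the pubertal and 4.14, 4.79 and 3.08 FPKM in the prepubertal libraries. Both stages covered nearly the same range, and the log2 fold change was -0.01 (SE 0.17, limma adjusted p = 0.999).

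Of the suprachiasmatic factors, SIX3 (gene 102179678) was at 1.23, 2.19 and 3.10 FPKM in the pubertal and 1.49, 2.79 and 1.69 FPKM in the prepubertal libraries, with a log2 fold change of 0.07 (SE 0.25, limma adjusted p = 0.992). Pubertal libraries held both its highest and its lowest value. SIX6 (gene 102178078), its close relative, was at 3.36, 4.68 and 4.77 FPKM in the pubertal and 5.83, 6.35 and 2.87 FPKM in the prepubertal libraries. Here 2 prepubertal libraries lay above and prepubertal replicate 3 below all pubertal values, and the log2 fold change was -0.15 (SE 0.25, limma adjusted p = 0.973). Without prepubertal replicate 3 it was -0.44, with an unadjusted limma p of 0.0349 and an adjusted p of 0.942. LHX1 (gene 102168572), a LIM homeobox factor of the neurons that keep the clock in phase, had the largest coefficient of variation, 45.4%. It was at 0.824, 1.30 and 3.04 FPKM in the pubertal and 1.65, 1.33 and 1.99 FPKM in the prepubertal libraries, with a log2 fold change of -0.04 (SE 0.27, limma adjusted p = 0.996). Pubertal replicates 1 and 3 were its lowest and highest libraries, with 95% Poisson intervals of 0.426 to 1.44 and 2.12 to 4.22 FPKM.

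**Figure D2:**
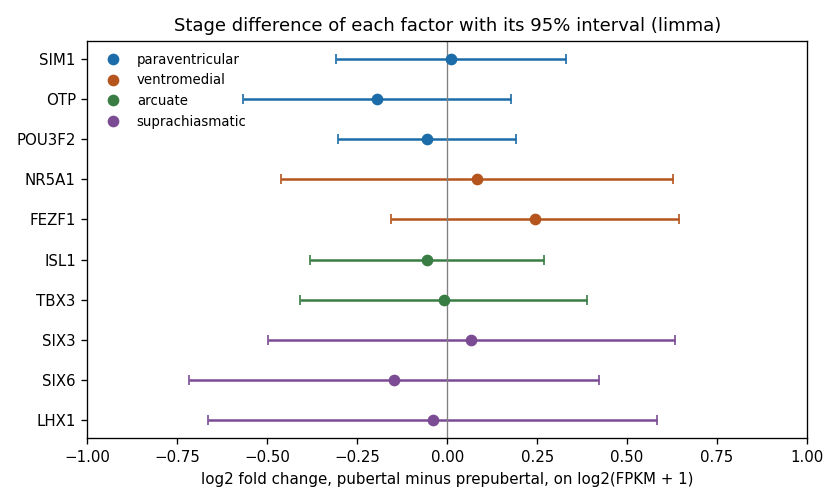
Log2 fold change (pubertal minus prepubertal, on log2(FPKM + 1)) of each factor with its 95% interval from limma, coloured by nucleus. Every interval includes 0, and the 10 intervals lie between -0.72 and 0.64.

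The precision of these values was read from the table itself. Low FPKM values of genes with 1 transcript were whole multiples of a step that depended on the library and the length of the transcript, and between 99.8% and 99.9% of the low values of a library came out whole within 0.05. All 60 values of the 10 factors came out as whole fragments, from 9 (OTP) to 485 (SIM1). The step followed the transcript length less an inferred offset of 232 to 262 nt, depending on the library. Per kilobase of this reduced length, 1 FPKM stood for 17.3 (pubertal replicate 3) to 23.6 (prepubertal replicate 3) fragments, the measure of depth used here. Whether this scale counts all mapped fragments or only some of them is not given in the sources used here. The intervals of these fragments cover counting error only. Relative to counting error alone, the variance between the 6 libraries was 1.49 times for POU3F2, 1.93 times for OTP and 2.96 times for ISL1. It was 9.88 times for SIX6 and 9.92 times for TBX3, and the other 5 factors lay from 3.44 (SIX3) to 6.35 times (NR5A1). The median over 10785 genes with 1 transcript was 5.92 times, a ratio that grows with the number of fragments, so that the low ratio of OTP rests partly on its few fragments.

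The factors were ordered by their mean FPKM over the 6 libraries. FPKM are per length of the transcript model, less the offset of 232 to 262 nt given above, and were compared as such. ISL1 stood first with 7.96 FPKM, followed by POU3F2 with 6.17, SIX6 with 4.64, TBX3 with 3.98, SIM1 with 3.56, FEZF1 with 3.48, NR5A1 with 3.22, SIX3 with 2.08, LHX1 with 1.69 and OTP with 0.852 FPKM. These levels lay between the 12.9th and the 44.9th percentile of the genes tested. Of 9 neighbouring pairs in this order, 4 were ordered alike in 6 of 6 libraries: ISL1 over POU3F2, POU3F2 over SIX6, NR5A1 over SIX3, and LHX1 over OTP. An exact two-sided sign-flip test gave p = 0.03125 for each of them, the smallest it can give, and 0.0703 after adjustment over the 9 pairs. The order and its pairs came from the same values, so these p do not test an order fixed beforehand. The other 5 neighbouring pairs, SIX6 over TBX3, TBX3 over SIM1, SIM1 over FEZF1, FEZF1 over NR5A1 and SIX3 over LHX1, were ordered so in 3 or 4 of 6 libraries. Their sign-flip p ran from 0.1875 to 0.78125. Pairs farther apart in the order were not tested.

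Libraries of the same stage could be at opposite ends. Prepubertal replicate 2 was the highest library for NR5A1, ISL1, TBX3 and SIX6 and was above the own mean of 8 of the 10 factors. Prepubertal replicate 3 was the lowest for NR5A1, FEZF1, ISL1, TBX3 and SIX6, and the highest for SIM1 and OTP. In prepubertal replicate 3, log2(FPKM + 1) was below the mean of the gene by 0.56 for NR5A1 and by 0.51 for SIX6, and above it by 0.17 for SIM1 and by 0.24 for OTP. Pubertal replicate 3 was the highest for POU3F2, FEZF1, SIX3 and LHX1 and the lowest for SIM1. Pubertal replicate 1 was the lowest for OTP, SIX3 and LHX1 and above the mean for 1 of 10 factors, SIM1. In all 10 of these genes the extreme values came from 5 libraries, and prepubertal replicate 1 was neither highest nor lowest for any of them. Over all genes the libraries had a Pearson r of 0.976 to 0.990 with each other on the log2(FPKM + 1) scale.

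**Figure D3:**
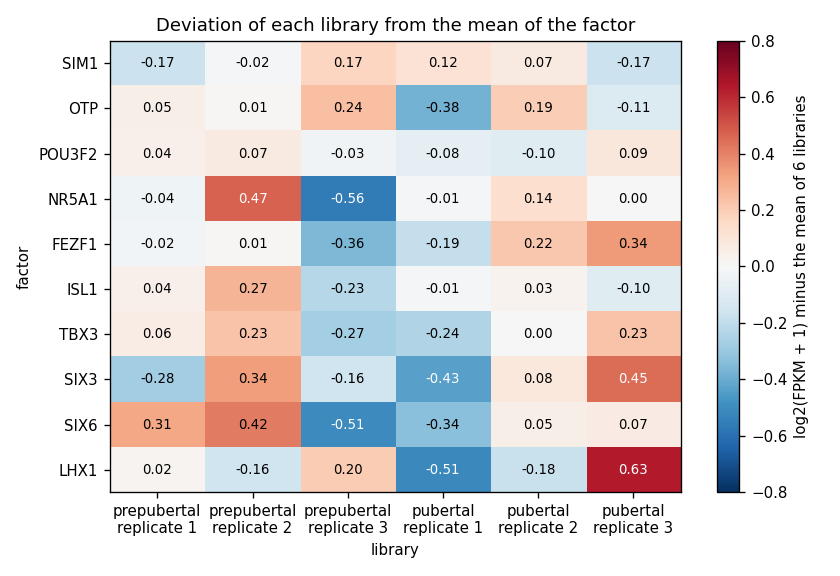
Deviation of log2(FPKM + 1) in each library from the mean of the factor over the 6 libraries (colour and printed value), with prepubertal libraries on the left. Prepubertal replicate 3 is low for NR5A1 and SIX6 and high for SIM1 and OTP, and no row splits by stage.

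Pairs of factors were compared over the 6 libraries, which differ by goat, by stage and by depth. Of the 45 pairs, 0 had an adjusted exact permutation p under 0.05, and the lowest was 0.398. The 8 pairs within a nucleus had a median Pearson r of 0.31 and the 37 pairs between nuclei one of 0.28. Within a nucleus, r ran from -0.78 for SIM1 and POU3F2 (Spearman's rho -0.71, exact p = 0.0958 and 0.136) to 0.60 for ISL1 and TBX3 (rho 0.66, exact p = 0.2 and 0.175). Without the 2 libraries farthest from the median of ISL1, r of ISL1 and TBX3 was -0.45. NR5A1 and FEZF1, both ventromedial, had an r of 0.56 (rho 0.71, exact p = 0.226 and 0.136), and 0.47 without the 2 farthest libraries.

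The 4 pairs with an unadjusted exact p under 0.05 all crossed nuclei. NR5A1 and ISL1 had an r of 0.93 (rho 0.60, exact p = 0.0333 and 0.242, adjusted p = 0.398 and 0.572). Without prepubertal replicates 2 and 3, which held the highest and lowest values of both genes, r was 0.21. Taking away the ends of a range can lower r by itself, so this value does not show what the relation rested on. TBX3 and SIX6 had an r of 0.88 (rho 0.94, exact p = 0.0236 and 0.0167, adjusted p = 0.398 and 0.510), which was 0.33 without pubertal replicate 1 and prepubertal replicate 3. ISL1 and SIX6 had an r of 0.81 (rho 0.83, exact p = 0.0458 and 0.0583), and 0.26 without prepubertal replicates 2 and 3. NR5A1 and SIX6 had an r of 0.80 (rho 0.60, exact p = 0.0375 and 0.242), and -0.03 without them. SIM1 had a negative r with 8 of the other 9 factors, the lowest being -0.80 with TBX3 (rho -0.83, exact p = 0.0681 and 0.0583, adjusted p = 0.398 and 0.510), and -0.98 without pubertal replicate 3 and prepubertal replicate 1. Its r with OTP was 0.12. With the stage means removed, r was 0.98 for NR5A1 and ISL1, 0.90 for TBX3 and SIX6 and -0.80 for SIM1 and TBX3.

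**Figure D4:**
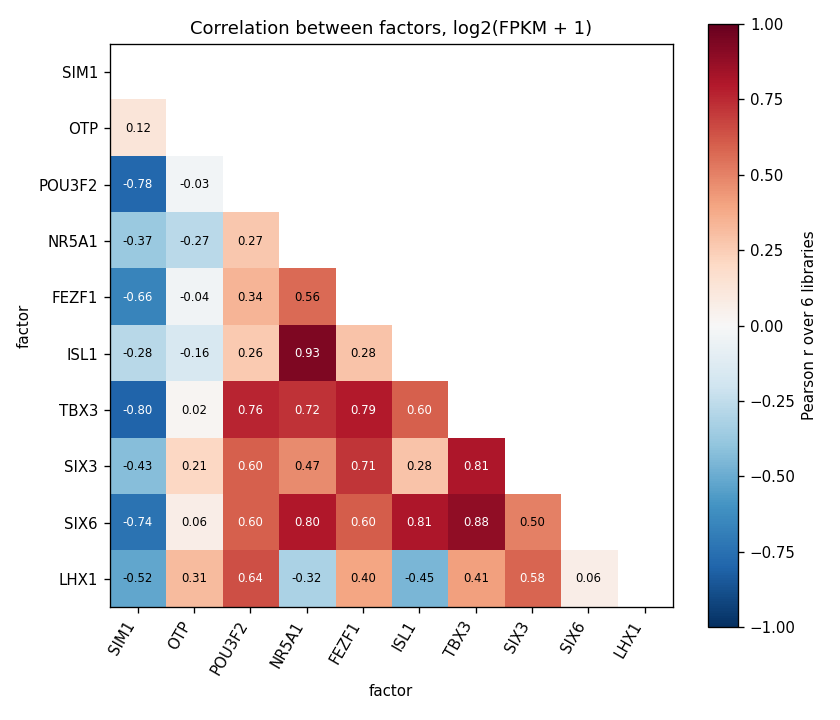
Pearson r for the 45 pairs of factors over the 6 libraries on the log2(FPKM + 1) scale (colour and printed value). NR5A1 and ISL1 have the highest r, 0.93, SIM1 is negative with 8 of 9 factors, and 0 of 45 pairs pass the adjustment.

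Other transcription factors of hypothalamic regions were taken from a list of 40 genes, of which 32 were in the table and 8 were not analysed here. With limma, 0 of these 32 had an adjusted p under 0.05 and 0 had an unadjusted p under 0.05, beside 5.16% of all genes. Their median log2 fold change was -0.02, with 15 of 32 above 0. The stages did not overlap for 1 of 32, beside 9.75% of all genes (5.91% with the pubertal libraries higher): LMX1B, a LIM homeobox factor, at 0.620, 0.728 and 1.09 FPKM in the pubertal and 0.377, 0.606 and 0.495 FPKM in the prepubertal libraries (log2 fold change 0.28, SE 0.13, limma adjusted p = 0.962), which was singled out after its values were seen. The 3 factors with the highest level were ARNT2, the partner of SIM1, with a mean of 30.2 FPKM, and RORA and RORB, orphan nuclear receptors used in the suprachiasmatic nucleus, with 18.6 and 11.5 FPKM. Their log2 fold changes were 0.01, -0.03 and 0.08.

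MEIS2 and LMX1A were among the other factors with the largest log2 fold change. MEIS2, a TALE homeobox factor, was at 3.58, 1.78 and 0.603 FPKM in the pubertal and 1.86, 4.16 and 3.42 FPKM in the prepubertal libraries (log2 fold change -0.56, SE 0.37, limma adjusted p = 0.962). LMX1A, a factor of the posterior hypothalamus, was at 1.55, 2.07 and 2.56 FPKM in the pubertal and 1.32, 1.02 and 1.75 FPKM in the prepubertal libraries (log2 fold change 0.37, SE 0.17, limma adjusted p = 0.962). Prepubertal replicate 2, the highest library for 4 of the 10 nuclear factors, was the lowest for LMX1A.

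Paralogs, genes of the same family as a factor, can share its role. Of 12 listed, 10 were in the table and 9 passed the minimum, and with limma 0 of 9 had an adjusted or unadjusted p under 0.05, beside 0% and 5.16% of all genes. POU3F3 was the highest, at 9.28, 12.1 and 9.37 FPKM in the pubertal and 11.0, 11.8 and 11.4 FPKM in the prepubertal libraries (log2 fold change -0.15, SE 0.12), and was thus above POU3F2 in 6 of 6 libraries. POU3F4 had a mean of 5.04 FPKM and a log2 fold change of -0.08, and FEZF2, the relative of FEZF1, a mean of 1.41 FPKM and -0.14.

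Peptides made in the same nuclei were read beside the factors. In the paraventricular nucleus, CRH, the releasing hormone of the stress axis, was at 1.83, 1.43 and 1.14 FPKM in the pubertal and 1.72, 1.37 and 2.63 FPKM in the prepubertal libraries (log2 fold change -0.22, SE 0.18, limma adjusted p = 0.962). AVP, the gene of vasopressin, was listed at 0 in all 6 libraries, and OXT and TRH were not analysed here, so that the main products of this nucleus could not be set beside SIM1 and OTP. MBP, a myelin gene of every brain region, was listed at 0 in prepubertal replicate 1 and at 3333 FPKM in pubertal replicate 1, and a 0 in this table is therefore not read as absence. In the ventromedial nucleus, ADCYAP1, the gene of the peptide PACAP, was at 34.9 to 40.6 FPKM and BDNF, a growth factor of neurons, at 12.7 to 16.6 FPKM in the 6 libraries, with log2 fold changes of -0.00017 and -0.04. Their highest value was 1.16 and 1.30 times their lowest, beside 2.63 times for NR5A1 and 1.88 times for FEZF1.

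Of the arcuate peptides, POMC and AGRP had a wider range over the libraries than ISL1 and TBX3. Among the 5 tested, POMC and AGRP had an unadjusted p under 0.05 with limma, beside 5.16% of all genes. Their log2 fold changes had opposite signs, and 0 of the 5 had an adjusted p under 0.05. Neither the 1 paraventricular nor the 2 ventromedial peptides tested had an unadjusted p under 0.05. POMC was at 34.4, 85.1 and 429 FPKM in the pubertal and 47.4, 22.9 and 24.3 FPKM in the prepubertal libraries (log2 fold change 1.83, SE 0.78, limma adjusted p = 0.959), and AGRP at 22.7, 5.69 and 28.3 FPKM and 97.5, 176 and 22.3 FPKM (log2 fold change -2.15, SE 0.77, limma adjusted p = 0.883). Their highest value was 18.7 and 30.9 times the lowest, beside 1.48 times for ISL1 and 1.55 times for TBX3. The sum of the pituitary genes, given below, was higher in every pubertal library, whereas POMC overlapped between the stages. Of the 7 pituitary genes tested, 5 had a log2 fold change above 0, and TBX19 and LHB had -0.03 each. The part of pituitary RNA in the level of POMC was not tested. GHRH, the releasing hormone of growth hormone, was at 19.9, 22.0 and 16.1 FPKM in the pubertal and 24.2, 30.5 and 15.8 FPKM in the prepubertal libraries, and had its highest and lowest value in the same libraries as ISL1 and TBX3. KISS1 and TAC3, which encode kisspeptin and neurokinin B, were at 1.19 to 2.94 and 8.86 to 13.1 FPKM, with log2 fold changes of -0.19 (SE 0.21) and -0.05 (SE 0.16).

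Of the suprachiasmatic peptides, GRP, the gene of gastrin-releasing peptide, was at 2.01, 2.72 and 3.51 FPKM in the pubertal and 4.47, 5.42 and 3.66 FPKM in the prepubertal libraries. The stages did not overlap, and the log2 fold change was -0.57 (SE 0.18, limma adjusted p = 0.822), beside 3.84% of all genes that were lower in every pubertal library. GRP was the 1 of 3 suprachiasmatic peptides tested with an unadjusted p under 0.05 with limma, beside 5.16% of all genes. VIP, the peptide of the neurons that receive light, was at 1.13, 2.80 and 0.469 FPKM in the pubertal and 0.690, 0.551 and 1.51 FPKM in the prepubertal libraries, with its peak in pubertal replicate 2. NMS, a peptide of clock neurons, was at 0.595, 4.60 and 1.36 FPKM in the pubertal and 0.448, 0.380 and 1.28 FPKM in the prepubertal libraries, with its peak in the same library (log2 fold change 0.74, SE 0.42, limma adjusted p = 0.962). SIX3, SIX6 and LHX1 were not at their highest in that library. PROK2 was listed at 0 in 5 libraries and at 0.143 FPKM in prepubertal replicate 3.

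For each factor, the genes with the most similar profile over the 6 libraries were taken from the genes with a mean of at least 1 FPKM. With 6 points and 14080 candidate genes (14081 for OTP), values of r above 0.95 were reached by 9 (SIM1) to 35 (OTP) genes, and the names are given as a description only. The 2 genes with the highest r were IL20RB (0.989) and MCCD1 (0.981) for SIM1, COQ9 (0.995) and LINGO1 (0.991) for OTP, and AKAP8L (0.994) and CSTF1 (0.994) for POU3F2. For NR5A1 they were ATP23 (0.993) and FAM118A (0.982), and for FEZF1 they were LHX2 (0.995), itself a hypothalamic LIM homeobox factor, and ERGIC3 (0.990). For ISL1 they were CFAP52 (0.980) and UNC5A (0.973), and for TBX3 ACSF3 (0.989) and the unnamed gene 106501904 (0.986). SIX3 had 2 genes without a symbol, 106504030 and 106503085 (both 0.99), SIX6 had CRYM (0.993), which encodes crystallin mu, and ARHGAP6 (0.975), and LHX1 had ABCC1 and CHRNA3 (both 0.993). LHX2 was at 1.24, 1.92 and 2.24 FPKM in the pubertal and 1.51, 1.51 and 1.05 FPKM in the prepubertal libraries, and CRYM at 75.9, 92.8 and 102 FPKM and 120, 126 and 68.4 FPKM.

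Markers of cells and tissue outside the nuclei were read for the same libraries. The summed FPKM of 8 pituitary genes was 47.5 to 67.5 in the pubertal and 4.42 to 21.6 in the prepubertal libraries, mostly through CGA, the common subunit of the pituitary glycoprotein hormones, at 50.1, 62.5 and 39.4 FPKM and 2.24, 18.0 and 3.32 FPKM. Of the 7 pituitary genes tested, 3 (CGA, TSHB and PITX1) did not overlap between the stages, all with the pubertal libraries higher, beside 5.91% of all genes. The same 3 had an unadjusted p under 0.05 with limma, beside 5.16% of all genes, 0 had an adjusted p under 0.05, and PRL and LHX3 were not analysed here. POU1F1, a defining factor of pituitary hormone cells, was at 0 in 3 libraries and no higher than 0.539 FPKM. The factors that the pituitary also uses, SIX3, SIX6, ISL1 and NR5A1, overlapped between the stages, and the part of pituitary RNA in their levels was not tested. Neuron markers summed to 1190 to 1492 FPKM in the pubertal and 1344 to 1492 FPKM in the prepubertal libraries, and telencephalon markers to 2.31 to 3.55 and 1.92 to 2.89 FPKM. Striatum markers did not overlap in their sum, at 29.2 to 31.0 FPKM in the pubertal and 21.2 to 28.4 FPKM in the prepubertal libraries. The sum rested mostly on PPP1R1B, which itself overlapped between the stages. Of the 5 striatum genes, 1 (RARB) was higher in every pubertal library, beside 5.91% of all genes. Log2 fold changes were above 0 for 4 of the 5 and -0.11 for DRD1, with 0 under an unadjusted p of 0.05. Of 3 endothelial genes, 1 was higher in every pubertal library, beside 5.91% of all genes: VWF, the gene of von Willebrand factor (log2 fold change 0.58, limma adjusted p = 0.795). The other endothelial genes, PECAM1 and FLT1, overlapped between the stages, with log2 fold changes of 0.29 and 0.06. The 4 ependymal and tanycyte genes had log2 fold changes of -0.28 to -0.16, with 0 under an unadjusted p of 0.05. The part of these tissues in the levels of the 10 factors was not tested. Choroid plexus markers summed to 5.83 to 329 FPKM in the pubertal and 8.16 to 57.8 FPKM in the prepubertal libraries, with the highest sum in pubertal replicate 3. That highest sum was mostly TTR, at 309 FPKM. KCNJ13, FOLR1, CLIC6 and AQP1 were also highest in pubertal replicate 3, and OTX2 was lowest in it, at 1.15 FPKM. POU3F2, FEZF1, SIX3 and LHX1 were highest in the same library. The part of choroid plexus RNA in the levels of these factors was not tested.

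Long noncoding RNAs next to the factors were taken from the study's list of neighbouring genes. Within 10 kb, 1 of the 10 factors, POU3F2, had lncRNA loci, XLOC_2302083 and XLOC_2302081, and the list of wider distance, of which only a portion was at hand, gave XLOC_347800 within 100 kb of SIX3. The lncRNA TCONS_04798067 of XLOC_2302083 is 393 nt long with 59.0% G and C, and TCONS_00684118 of XLOC_347800 is 537 nt long with 44.5%. Bases 1 to 300 of both, as deposited, are shown because these are the noncoding neighbours with a value above 0 in most libraries. Capitals mark the longest frame from ATG to a stop codon on the strand given, of 30 and 19 codons.
TCONS_04798067: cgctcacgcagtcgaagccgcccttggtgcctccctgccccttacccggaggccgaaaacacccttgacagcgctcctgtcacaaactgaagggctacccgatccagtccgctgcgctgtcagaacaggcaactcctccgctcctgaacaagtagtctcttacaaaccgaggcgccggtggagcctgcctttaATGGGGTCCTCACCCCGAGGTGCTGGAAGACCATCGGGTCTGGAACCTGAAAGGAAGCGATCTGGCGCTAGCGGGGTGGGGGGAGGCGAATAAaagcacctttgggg
TCONS_00684118: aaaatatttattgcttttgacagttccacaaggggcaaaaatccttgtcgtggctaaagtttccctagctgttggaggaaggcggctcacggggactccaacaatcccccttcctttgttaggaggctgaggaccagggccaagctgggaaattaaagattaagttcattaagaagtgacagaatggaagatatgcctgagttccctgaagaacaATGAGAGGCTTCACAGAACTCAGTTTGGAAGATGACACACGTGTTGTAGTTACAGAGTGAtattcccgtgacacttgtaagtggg

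The lncRNA TCONS_04798067 was at 0.336, 0 and 0.379 FPKM in the pubertal and 1.41, 1.80 and 0 FPKM in the prepubertal libraries. Prepubertal replicates 1 and 2 were above all pubertal libraries, and prepubertal replicate 3 was listed at 0. Its log2 fold change was -0.62 (SE 0.41, limma adjusted p = 0.943 over the 2925 lncRNA transcripts tested). TCONS_04798063 of XLOC_2302081, of 718 nt, was listed at 0 in 3 libraries and was at 0.901 FPKM in pubertal replicate 2 and at 0.110 and 0.465 FPKM in the first 2 prepubertal libraries (log2 fold change 0.08, SE 0.32, limma adjusted p = 0.995). TCONS_00684118 was at 0.322, 0.287 and 0.779 FPKM in the pubertal and 0.534, 1.21 and 0.146 FPKM in the prepubertal libraries (log2 fold change -0.12, SE 0.29, limma adjusted p = 0.995). With limma, 0 of these 3 lncRNAs had an adjusted p under 0.05, beside 0.0342% of all lncRNA transcripts. None of them had an unadjusted p under 0.05, beside 3.52%, and 0 had libraries that did not overlap, beside 6.67%. Over the 6 libraries, r was 0.67 for TCONS_04798067 and POU3F2 (rho 0.72, exact p = 0.194 and 0.122, adjusted over 3 pairs 0.292 and 0.367). It was 0.68 for TCONS_00684118 and SIX3 (rho 0.49, exact p = 0.142 and 0.356) and -0.29 for TCONS_04798063 and POU3F2 (rho -0.27, exact p = 0.558 and 0.617). Without the 2 farthest libraries these r were 0.56, 0.66 and 0.35.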

How the data were processed

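Hypothalamus RNA of 3 pubertal and 3 prepubertal female Anhuai goats was sequenced, with 1 library per goat. Samples were grouped by their labels. TopHat was the aligner of the authors, who used Scripture and Cufflinks 2.1.1 for assembly, selected lncRNAs with CNCI, CPC and Pfam-scan and compared the stages with Cuffdiff 2.1.1. The genome build is not given in the sources used here. The deposited mRNA and lncRNA tables give each transcript in FPKM for each library, scaled by a total of fragments and by length. Also deposited were the sequences of the lncRNAs and a table of the comparison made by the authors, whose fold changes and p-values were not used. That table served only to pair transcripts with genes. Gene names are those of RefSeq for assembly ARS1.2, to which 19083 of 20225 genes (94.4%) matched. Protein and promoter sequences were not used here.

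FPKM were summed by gene. Stages were compared with limma 3.58.1 in R 4.3.3 (a two-sided moderated test with a trend in the variance) on log2(FPKM + 1), for genes with a mean of at least 0.1 FPKM, with Benjamini-Hochberg adjustment over all genes and a threshold of 0.05. lncRNA transcripts were fitted likewise. Fold changes on this scale understate the change of low genes. Fragments were inferred from the step between low FPKM values of genes with 1 transcript of 800 to 4000 nt, with a 95% exact Poisson interval, and no count model from the deposited FPKM was the main test. Correlations used exact permutation over all 720 pairings. The Python (3.11.15) packages were scipy 1.17.1, matplotlib 3.10.9, pandas 2.3.3 and numpy 2.4.6, and limma was tested on simulated data.

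The genes named were all 10 factors, the peptides of their nuclei, the 3 other region factors and 3 paralogs with the highest level and the 3 with the largest log2 fold change, any of these with an adjusted p under 0.05, the 2 genes most like each factor, and the lncRNAs paired with a factor. Results that need a withheld item are not reported here. The factors and lists were chosen with earlier results of these data known. The alternatives were a pseudocount of 0.1, no minimum, a minimum mean of 1, quantile normalization, upper-quartile scaling, centring on the library median, limma without a trend, the replicate number as a block, the most abundant transcript of a gene, leaving out each library, and voom on whole fragments, chosen after seeing the data.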

Additional observations from a re-analysis of the deposited data

How the results depend on the processing

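Under all 16 alternatives to the gene fit, 0 of the 10 factors and 0 of the 32 other region factors had an adjusted p under 0.05 where tested. OTP was not tested under a minimum mean of 1. An unadjusted p under 0.05 appeared for FEZF1 without pubertal replicate 1 and for SIX6 without prepubertal replicate 3, and for no other of the 10 factors. Of the 32 other region factors, 0 had one in the reported fit, against 1 with no minimum, 2 with the replicate block, 4 without pubertal replicate 1 and 1 each without pubertal replicate 2, pubertal replicate 3 and prepubertal replicate 3. Over all genes, 0 were called, against 1 with the replicate block and 0 to 4 without each library in turn (4 without pubertal replicate 2). The 846 genes with an unadjusted p under 0.05 were 539 with voom on whole fragments, which tested 10785 genes, and 502 (without prepubertal replicate 1) to 2223 (without pubertal replicate 1) with a library left out. Of the 846, 575 were higher and 271 lower in pubertal libraries, and with centring on the library median 454 were higher and 407 lower.

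Signs of the small differences were not stable. Quantile normalization gave log2 fold changes of -0.083 for SIM1, -0.0027 for NR5A1 and -0.0090 for SIX3, centring gave -0.025 for SIM1, and upper-quartile scaling gave 0.010 for TBX3. A pseudocount of 0.1 gave -0.080 for TCONS_04798063. Leaving out each library gave -0.071 to 0.10 for SIM1, -0.18 to 0.34 for NR5A1, -0.19 to 0.066 for ISL1, -0.15 to 0.11 for TBX3, -0.14 to 0.30 for SIX3, -0.44 to 0.025 for SIX6, -0.37 to 0.21 for LHX1, -0.23 to 0.23 for TCONS_04798063 and -0.35 to 0.13 for TCONS_00684118. FEZF1 (0.13 to 0.40), OTP (-0.34 to -0.06) and POU3F2 (-0.12 to -0.02) kept their sign. The r of OTP and POU3F2, -0.03, was 0.12 with centring, and without the 2 farthest libraries r was -0.45 for ISL1 and TBX3, -0.75 for SIX3 and LHX1 and -0.44 for SIX6 and LHX1. The cause of these changes was not tested.

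Replicate numbers are shared by the stages, and the deviations of libraries with the same number had an r of -0.02, -0.10 and 0.08. Deviations from a mean of 3 libraries cannot tell whether such libraries share more than a number. With the replicate number as a block, 1 gene was called, no call among the factors changed, and pairing was not used otherwise. OTP, SIX3 and LHX1 rest on 9 to 40 fragments a library, with a variance between libraries of 1.93, 3.44 and 4.56 times counting error.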
